A study of Mus musculus with 5 samples.

Results

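The mouse beta-defensins are 42 of the 78334 gene identifiers in the deposited count table, taken as every row whose symbol is Defb followed by a number and at most 1 letter. Beta-defensins are small, positively charged secreted peptides whose fold is held by disulfide bonds between conserved cysteines. Some are antimicrobial peptides of skin, airway and gut lining, where infection and inflammatory cytokines induce them. In the mouse a large part of the family is made instead by the lining of the epididymis, the duct in which sperm mature. There the peptides coat sperm and take part in the gain of motility, and mice that lack a run of the chromosome 8 genes are sterile as males. White fat is not known as a site of high beta-defensin expression.

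The data are RNA counts of visceral fat in 5 libraries, all of male mice of the inbred strain C57BL/6, for which the labels give no mutation or transgene. In the 2 resveratrol libraries, mice ate a high-fat diet (60% of energy as fat) for 8 weeks and then took resveratrol, a polyphenol of plants, by gastric tube at 2.25 mg/kg per day for 28 days. In the 2 obesity libraries, the same diet was followed by vehicle. The 1 control library came from standard chow with vehicle. The diet began at 8 weeks of age and dosing at 16 weeks. The labels name neither the visceral depot nor the animal behind each library, so a p-value here reflects the spread between libraries, which may be technical. Levels are given as CPM, the reads of a gene relative to the TMM-scaled size of its library. Libraries held 19540961 to 27026597 counts, and 3 counts, the floor used where a gene was at 0, equal 0.105 to 0.157 CPM. All intervals and floors describe counting error and nothing else.

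Tissue markers differed widely between libraries. The 7 adipocyte markers, among them Adipoq and Plin1, had summed levels of 4880 CPM in resveratrol library 1, 28073 CPM in resveratrol library 2, 28332 and 30119 CPM in obesity, against 315 CPM in control. The 6 markers of the epididymal caput and corpus (head and body of the duct), such as Gpx5 and Lcn5, reached 1.54 CPM in resveratrol library 1, 0.0778 CPM in resveratrol library 2, 13.3 and 0.0952 CPM in obesity, against 41160 CPM in control. The 7 initial segment markers, Lcn8 and Lcn9 included, reached 0.636 CPM in resveratrol library 1, 0.272 CPM in resveratrol library 2, 10.1 and 0.143 CPM in obesity, against 22393 CPM in control. Control was thus far above the 4 other libraries for the upper duct and far below them for adipocytes, which goes against its label as fat. The 5 markers of cauda epididymis (tail of the duct) and vas deferens reached 19642 CPM in resveratrol library 1, 7.51 CPM in resveratrol library 2, 8.14 and 3.81 CPM in obesity, against 4564 CPM in control. Akr1b7 at 15288 CPM and Crisp1 at 3397 CPM made up most of that sum in resveratrol library 1. The 6 smooth muscle markers reached 40822 CPM in resveratrol library 1, 437 CPM in resveratrol library 2, 620 and 360 CPM in obesity, against 1039 CPM in control. In bulk tissue, fewer cells of a type and less RNA per cell cannot be told apart.

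**Figure D1:**
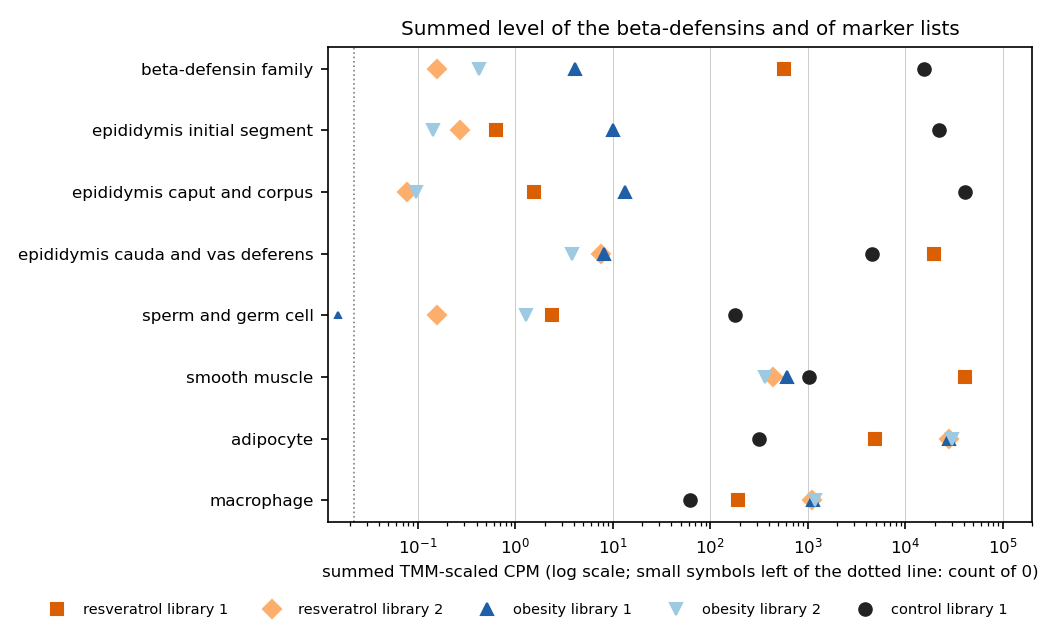
Summed TMM-scaled CPM (log axis) of the 42 beta-defensins and of 7 marker lists in each library, 1 point per library. The beta-defensin sum is highest in control at 15521 CPM and next in resveratrol library 1 at 566 CPM. Resveratrol library 1 has the highest sum of cauda and vas deferens and of smooth muscle markers. Akr1b7 gave 15288 CPM of its cauda and vas deferens sum of 19642 CPM.

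The sequences shown are the promoters of the 5 chromosome 14 genes, because these genes carried nearly all beta-defensin counts of resveratrol library 1. Each line gives the 250 bases before the RefSeq gene start on build GRCm38.p6, read 5′ to 3′ on the strand of the gene, while the counts were made on GRCm39. They lie at chr14:62984511-62984760 on the minus strand for Defb48, chr14:62997827-62998076 on the plus strand for Defb47, chr14:63011521-63011770 on the plus strand for Defb43, chr14:63037847-63038096 on the minus strand for Defb30, and chr14:63046741-63046990 on the plus strand for Defb42. Capitals mark a hexamer of steroid hormone response elements, searched as AGAACA and its reverse complement TGTTCT.
Defb48: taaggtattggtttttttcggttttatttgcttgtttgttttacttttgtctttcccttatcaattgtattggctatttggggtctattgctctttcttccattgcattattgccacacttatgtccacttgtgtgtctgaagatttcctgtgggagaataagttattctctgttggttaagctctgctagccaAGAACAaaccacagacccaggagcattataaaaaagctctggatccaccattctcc
Defb47: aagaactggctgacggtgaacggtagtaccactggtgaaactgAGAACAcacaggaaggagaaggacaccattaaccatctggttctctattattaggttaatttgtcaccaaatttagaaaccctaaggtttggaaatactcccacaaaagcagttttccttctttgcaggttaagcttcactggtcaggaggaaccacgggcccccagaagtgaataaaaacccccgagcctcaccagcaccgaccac
Defb43: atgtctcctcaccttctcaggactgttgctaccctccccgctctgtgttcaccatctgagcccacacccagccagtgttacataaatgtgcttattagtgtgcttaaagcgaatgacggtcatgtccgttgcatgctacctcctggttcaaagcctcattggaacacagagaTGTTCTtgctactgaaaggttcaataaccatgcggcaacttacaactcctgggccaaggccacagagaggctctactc
Defb30: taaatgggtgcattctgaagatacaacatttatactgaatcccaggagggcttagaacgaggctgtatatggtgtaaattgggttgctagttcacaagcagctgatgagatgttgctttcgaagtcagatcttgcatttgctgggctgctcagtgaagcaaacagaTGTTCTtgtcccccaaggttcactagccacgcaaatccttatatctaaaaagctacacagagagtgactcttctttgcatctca
Defb42: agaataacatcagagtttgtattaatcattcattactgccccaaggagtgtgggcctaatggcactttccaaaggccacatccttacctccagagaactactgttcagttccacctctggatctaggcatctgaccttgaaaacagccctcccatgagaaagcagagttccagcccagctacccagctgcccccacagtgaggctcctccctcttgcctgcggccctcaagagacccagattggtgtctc

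The hexamer was present in 4 of these 5 windows, and Defb42 had none. In Defb43 it stood 73 to 78 bases before the gene start and in Defb30 79 to 84 bases before it, inside a shared run of 11 bases, agatgttcttg. Around that run the windows of Defb43 and Defb30 aligned over 51 bases with 74.5% identity, the longest alignment among the 10 pairs of these windows. RefSeq promoters were at hand for 29 of the 42 members, in 30 windows. The hexamer lay in 14 of the 30 windows, or 46.7%, against 5284 of 32851 windows of all genes, or 16.1%. Member windows can resemble each other, as those of Defb43 and Defb30 do, so they are not separate observations. The windows of all genes were not matched to them for base composition. The TATA box, searched as TATAAA on both strands, lay in 5 of 30 member windows (16.7%) and in 12.4% of all windows. Such matches are descriptions of letters and were not tested as binding sites.

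The family was high in the control library, present at a lower level in resveratrol library 1, and nearly absent from the 3 other libraries. Summed over all 42 genes, it was at 566 CPM (95% exact Poisson interval 556 to 576) in resveratrol library 1 and 0.156 CPM (0.0424 to 0.398) in resveratrol library 2. The sum was 4.12 CPM (3.26 to 5.14) in obesity library 1 and 0.428 CPM (0.196 to 0.813) in obesity library 2. In the control library it was 15521 CPM (15475 to 15567), which is 445083 reads and 1.65% of all counts of that library. The resveratrol libraries thus lay on both sides of the obesity libraries. In these sums 10 members had 10 or more counts in resveratrol library 1, 0 in resveratrol library 2, 4 in obesity library 1, 0 in obesity library 2, and 34 in control. Of the 42 members, 34 reached 10 counts in some library, 4 had at most 1 to 9 counts (Defb5, Defb6, Defb33 and Defb50), and 4 were at 0 throughout (Defb4, Defb7, Defb8 and Defb46).

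**Figure D2:**
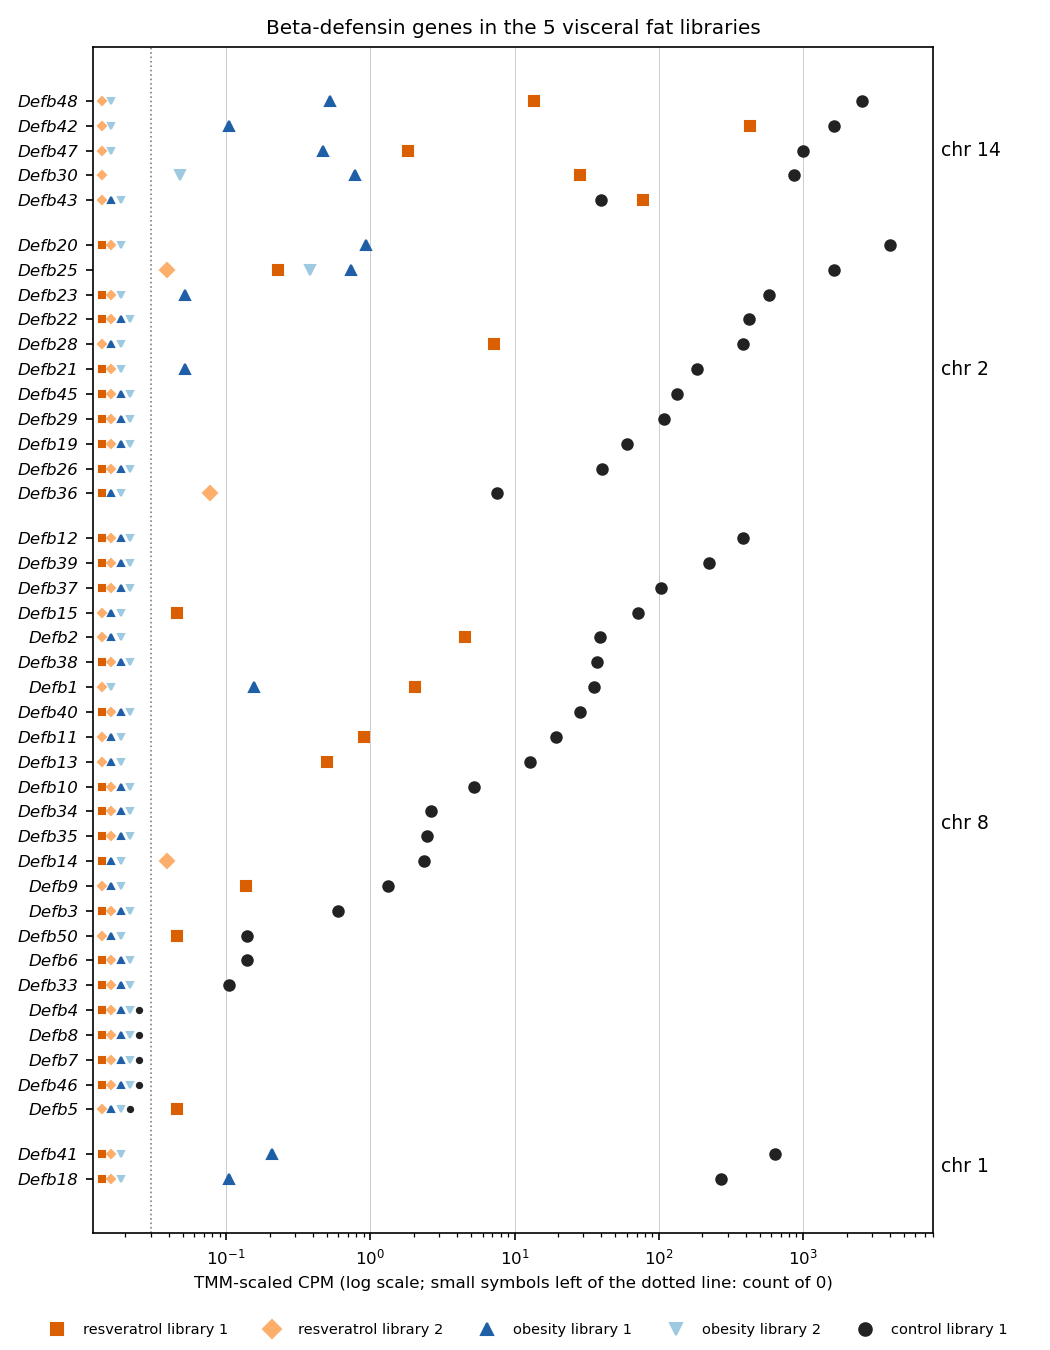
TMM-scaled CPM (log axis) of each of the 42 beta-defensin genes in each of the 5 libraries, grouped by chromosome, with counts of 0 as small symbols left of the dotted line. Control is the highest library for 36 of the 42 genes, and resveratrol library 1 lies above it for Defb43 on chromosome 14, at 77.1 CPM against 39.4 CPM.

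The chromosome 14 run has 5 members, which lie next to each other in the order Defb48, Defb47, Defb43, Defb30 and Defb42. Defb42, known from rats to act with Defb23 and Defb26 in sperm maturation, stood at 429.6 CPM in resveratrol library 1, 0 in resveratrol library 2, 0.104 and 0 CPM in the obesity libraries, and 1637 CPM in control. Defb43 was at 77.1 and 0 CPM with resveratrol, at 0 in both obesity libraries, and at 39.4 CPM in control. It was the only one of the 37 members with counts in control that stood higher in another library, at 1.96 times the control level in resveratrol library 1 (95% exact interval 1.81 to 2.11). Defb30 was at 28.3 and 0 CPM with resveratrol, 0.783 and 0.0476 CPM in obesity, against 871 CPM in control. Defb48 was at 13.7 and 0 CPM with resveratrol, 0.522 and 0 CPM in obesity, against 2541 CPM in control. Defb47 was at 1.82 and 0 CPM with resveratrol, 0.47 and 0 CPM in obesity, against 993.5 CPM in control. All 5 were thus present in 1 resveratrol library and missing from the other. As a share of the control level in resveratrol library 1 they were far from uniform, at 196% for Defb43, 26.2% for Defb42, 3.25% for Defb30, 0.538% for Defb48 and 0.183% for Defb47.

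The chromosome 2 run has 11 members, of which 2 had counts in resveratrol library 1. Defb20 was at 0 counts in both resveratrol libraries, at 0.939 and 0 CPM in the obesity libraries, and at 4011 CPM in control, where it made up 25.8% of all beta-defensin counts. In resveratrol library 1 it was at least 29429-fold lower than in control, against a floor of 3 counts. Defb25 was at 0.227 and 0.0389 CPM with resveratrol, 0.73 and 0.381 CPM in obesity, against 1633 CPM in control. It was the only member with counts in all 5 libraries, 5 and 1 with resveratrol and 14 and 8 in obesity. Defb28 was the 1 other chromosome 2 gene with counts in resveratrol library 1, at 7.22 CPM there, at 0 in resveratrol library 2 and both obesity libraries, and at 383 CPM in control.

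The remaining chromosome 2 genes were at 0 in resveratrol library 1. Defb23 was at 0 in both resveratrol libraries, at 0.0522 and 0 CPM in obesity, and at 577 CPM in control. Defb22, whose product coats the sperm surface, was at 0 in the resveratrol and obesity libraries and at 421 CPM in control, at least 2812-fold lower in obesity against the floor. Defb21 stood at 184 CPM, Defb45 at 135 CPM, Defb29 at 108 CPM, Defb19, known from mouse testis, at 60.1 CPM, and Defb26 at 40.5 CPM in control. Apart from 1 read of Defb21 in obesity library 1, these 5 were at 0 in the other libraries. Defb36 was at 7.6 CPM in control and had 2 reads in resveratrol library 2.

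The chromosome 1 pair was present in control and all but absent elsewhere. Defb41, which marks principal cells of the caput, was at 0 in both resveratrol libraries, at 0.209 and 0 CPM in obesity, and at 642 CPM in control. Defb18 was at 0 with resveratrol, at 0.104 and 0 CPM in obesity, and at 271 CPM in control.

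The chromosome 8 run has 24 members, the largest number, and held both the epithelial and the epididymal beta-defensins. In control it summed to 966 CPM, against 7560 CPM for the 11 genes on chromosome 2 and 6082 CPM for the 5 on chromosome 14, sums that depend on the number and length of the genes. Its members with the most control reads were Defb12 at 381 CPM, and Defb39 at 222 CPM and Defb37 at 104 CPM, which are known from mouse epididymis, all at 0 in the 4 other libraries. Defb15 was at 0.0454 CPM (1 read) in resveratrol library 1, 0 in resveratrol library 2 and the obesity libraries, and 71.4 CPM in control. Defb38 at 37.4 CPM and Defb40 at 28.6 CPM were likewise seen in control alone.

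Along this run the genes with more than 1 read in resveratrol library 1 all lay among the last 9 members. Counting members in chromosome order, the first 15, which are Defb40 to Defb33, had 1 read in all in that library, of Defb5. The last 9 run from Defb1 to Defb13, and 7 of them had reads there, with Defb10 and Defb35 at 0. Among these 7, Defb50 and Defb15 had 1 read each and Defb9 had 3. The others, Defb1, Defb2, Defb11 and Defb13, were not next to each other. Defb1, a beta-defensin made constitutively by kidney and airway epithelium, was at 2.04 and 0 CPM with resveratrol, 0.157 and 0 CPM in obesity, against 35.4 CPM in control. Defb2, which is induced in mouse airway by bacterial products, was at 4.5 and 0 CPM with resveratrol, 0 in both obesity libraries, and 38.8 CPM in control. Defb11 was at 0.909 and 0 CPM with resveratrol, 0 in obesity and 19.3 CPM in control. Defb13 was at 0.5 and 0 CPM with resveratrol, 0 in obesity and 12.7 CPM in control. Relative to control, resveratrol library 1 was at 11.6% for Defb2 (95% exact interval 9.33 to 14.2), 5.78% for Defb1 (4.19 to 7.79), 4.7% for Defb11 (2.85 to 7.33) and 3.93% for Defb13 (1.94 to 7.11).

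The remaining chromosome 8 members with 10 or more counts were at 5.2 CPM or less in every library. Defb14, a skin and mucosal peptide that acts on the chemokine receptor Ccr6, was at 2.34 CPM in control and had 1 read in resveratrol library 2. Defb3, inducible in mouse airway, was at 0.593 CPM in control and at 0 elsewhere. Defb4, inducible in mouse epithelia, was at 0 in all 5 libraries, where a level under the floor of 0.105 to 0.157 CPM could have been missed. Defb10 stood at 5.2 CPM, Defb34 at 2.65 CPM, Defb35 at 2.48 CPM and Defb9 at 1.33 CPM in control, and of these Defb9 alone had reads elsewhere, 3 in resveratrol library 1.

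Some values are uncertain because copies resemble each other or overlap. Transcripts of Defb12 and Defb35 matched at 92.6% over 230 bases, those of Defb34 and Defb15 at 91.1% over 247 bases and those of Defb10 and Defb11 at 90.3% over 299 bases, so reads of the lower gene of each pair could stem from the other. Defb15 also overlaps an exon of Gm36879 on the opposite strand, and the strand setting of the counting is not given in the sources used here.

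**Figure D3:**
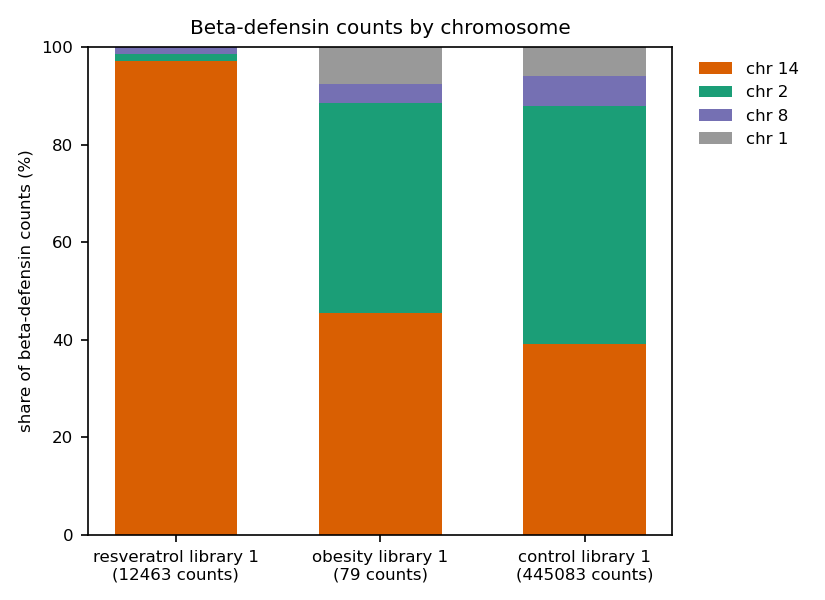
Share of all beta-defensin counts (percent) that fell on chromosomes 14, 2, 8 and 1 in the 3 libraries with more than 10 such counts, with the number of counts under each bar. Chromosome 14 holds 97.2% in resveratrol library 1, 45.6% in obesity library 1 and 39.2% in control. Defb42 alone holds 75.9% in resveratrol library 1.

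The makeup of the family therefore differed between the 2 libraries that held most of it. Chromosome 14 genes took 97.2% of beta-defensin counts in resveratrol library 1 (95% exact interval 96.9 to 97.5) and 39.2% in control (39.0 to 39.3). Most of that share was 1 gene, since Defb42 alone took 75.9% in resveratrol library 1, against 10.5% in control. Defb42 is also the longest member, at 2425 exon bases, and shares of counts are not corrected for length. Chromosome 2 genes took 1.32% (1.12 to 1.53) in resveratrol library 1 and 48.7% (48.6 to 48.9) in control. Chromosome 8 genes took 1.45% in resveratrol library 1 and 6.22% in control, and the chromosome 1 pair 0% in resveratrol library 1 and 5.88% in control. These are 2 single libraries, so the shares compare those libraries and not treatment with diet. Of the 34 members with 10 or more counts in control, 21 were at 0 in resveratrol library 1. The 5 cauda and vas deferens markers ranged widely in resveratrol library 1, where Crisp1 was at 138%, Aqp9 at 102% and Spink8 at 40.3% of the control level. Akr1b7 was at 15288 CPM in resveratrol library 1 and 8.19 CPM in control, and Aqp2 at 40.5 CPM in resveratrol library 1 and 0.942 CPM in control. Gpx5 of the caput was at 0.000647% of the control level and Lcn8 of the initial segment at 0 counts in resveratrol library 1. The part of the duct segments in these differences was not tested.

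**Figure D4:**
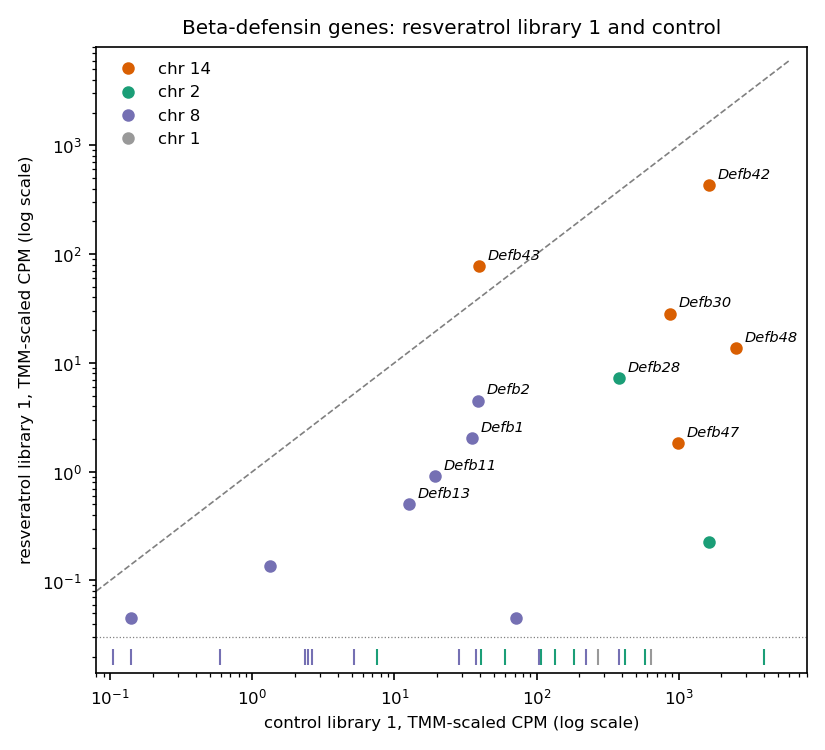
TMM-scaled CPM of each beta-defensin gene in resveratrol library 1 (y axis, log) and in the control library (x axis, log), with the dashed line marking equal levels and ticks under the dotted line marking genes at 0 in resveratrol library 1. Of the genes with counts in control, Defb43 alone lies above the line, at 77.1 CPM and 39.4 CPM, and Defb20, the highest in control at 4011 CPM, is at 0.

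Per length, the order of the members also changed between these libraries. With exon lengths from the GENCODE M21 annotation, on GRCm38, the highest in resveratrol library 1 were Defb43 at 189 CPM per kilobase, Defb42 at 177, Defb48 at 30.7 and Defb30 at 21.2. In control the highest per kilobase were Defb20 at 5813, Defb48 at 5711, Defb25 at 5573 and Defb47 at 2767 CPM per kilobase. Defb43 ranked 22 of 42 and Defb42 ranked 10 of 42 there. Neighbours such as Defb43 and Defb42, or Defb20, Defb48 and Defb25, cannot be ordered, since each library stands alone and the lengths rest on an annotation that may not be the authors' own.

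Obesity library 1 held 79 beta-defensin reads, which fell on genes of all 4 chromosomes. They were led by 18 reads of Defb20, 15 of Defb30, 14 of Defb25, 10 of Defb48 and 9 of Defb47. Chromosome 14 genes took 45.6% of them (95% exact interval 34.3 to 57.2) and chromosome 2 genes 43.0% (31.9 to 54.7). The family sum was 0.0266% of the control level (95% exact interval 0.021 to 0.0331), with Defb20 at 0.0234% (0.0139 to 0.037) and Defb30 at 0.0899% (0.0503 to 0.148). Gpx5 was at 0.039% and Lcn8 at 0.0331% of the control level in the same library. Its sperm and germ cell markers were at 0 for all 7 genes, against 177 CPM in control. The 5 urothelium markers summed to 19.2 and 136 CPM with resveratrol, 304 and 10.1 CPM in obesity, against 111 CPM in control. The 5 basal epithelium markers summed to 79.2 and 8.09 CPM with resveratrol, 154 and 1.62 CPM in obesity, against 196 CPM in control. Krt5, at 132 CPM, made up most of the basal sum in obesity library 1, where Krt14 was at 3.08 CPM, against 70.0 CPM in control. The part of these tissues in the beta-defensin reads was not tested. Obesity library 2 had 8 reads of Defb25 and 1 of Defb30, and resveratrol library 2 had 2 of Defb36, 1 of Defb14 and 1 of Defb25.

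The comparison of obesity with control asked how the high-fat diet changed visceral fat. Every beta-defensin gene with 10 or more counts in control was lower in both obesity libraries, with the largest differences in CPM, though not in log2, for Defb20, Defb48 and Defb42. For the 23 such members at 0 in both obesity libraries, the level was at least 3.96-fold to 2812-fold lower against a floor of 3 counts per library, with a median bound of 260-fold. Defb25 differed by -11.51 on the log2 scale (SE 1.06), at 0.556 CPM in obesity on average and 1633 CPM in control. No member passed edgeR's quasi-likelihood test, where 0 of 34 tested members and 0% of 24779 genes were called and the members' adjusted p ran from 0.16 to 0.271. At an unadjusted p under 0.05, 30 of 34 members were lower, against 11.7% of all genes. DESeq2 called 22 members lower, against 7.29% of all genes, and 0 higher, against 10.6%, and limma-voom called 0. These 34 entered the test through their counts in control, 22 of them through no other library, so they had to differ and the count says nothing about the family as a whole. Leaving out either resveratrol library raised the number of members called by edgeR from 0, and the number of all genes called rose as well. The diet cannot be told apart from the epididymal transcripts of the lone control library.

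The comparison of resveratrol with obesity asked how resveratrol changed fat on the high-fat diet. For the beta-defensins it rested on resveratrol library 1, since resveratrol library 2 had 4 reads of the family. Defb42 averaged 215 ± 304 CPM (SD, n = 2) with resveratrol and 0.0522 ± 0.0738 CPM (SD, n = 2) in obesity. Defb43 averaged 38.6 ± 54.5 CPM with resveratrol and was at 0 in obesity, at least 258-fold higher on average against the floor. Both genes were at 0 in resveratrol library 2, so the SD of the resveratrol pair had to exceed its mean. EdgeR's quasi-likelihood test called 0 of 34 members and 0% of genes in this comparison, with 0 members at an unadjusted p under 0.05, against 1.92% of genes higher and 0.428% lower. DESeq2 called Defb43 alone as higher (adjusted p = 3.44e-05), against 0.823% of all genes, and 0 lower, against 0.0807%, and limma-voom called 0. The differences of Defb48 and Defb30 changed sign with the resveratrol library left in the fit. With resveratrol library 1 alone they were 5.74 and 6.12 log2, and with resveratrol library 2 alone -5.60 and -6.27. Smooth muscle, cauda and vas deferens markers stood apart in resveratrol library 1.

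The third comparison set resveratrol against control, with the same control library as the first. Resveratrol libraries 1 and 2 had 3.65% and 0.001% of the control family sum. In edgeR's quasi-likelihood test 0 of 34 members and 0% of genes were called, with 23 members lower at an unadjusted p under 0.05, against 8.05% of all genes, and 0 higher, against 10.5%. DESeq2 called 17 members lower, against 4.12% of all genes, and 0 higher, against 8.1%. Limma-voom called 14 lower, against 0.323%. All 34 entered this test too through their counts in control, so nothing about the family is read from these counts. Defb20 was at 0 with resveratrol and 4011 CPM in control, and Defb42 and Defb43 were not among the members called by any of these tools. Here too, leaving out either resveratrol library raised the number of members called by edgeR from 0, together with the number of all genes called.

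The nearest relatives of the family followed the upper duct. Spag11b, an epididymal gene of beta-defensin type, was at 0 in both resveratrol libraries, at 3.6 and 0 CPM in obesity, and at 7583 CPM in control. Spag11a was at 0 with resveratrol, at 0.104 and 0 CPM in obesity, and at 198 CPM in control. The alpha-defensins, which are made by Paneth cells of the gut, stayed under 1 CPM in all 5 libraries for the 10 listed genes found in the table.

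The receptors and inducers of beta-defensins named here did not follow the order of the family's levels. Ccr6, a chemokine receptor that several beta-defensins bind, was at 0 and 0.156 CPM with resveratrol, 0 and 0.0476 CPM in obesity, and 0 in control. Ccr2, a monocyte chemokine receptor, was at 10.1 and 89.8 CPM with resveratrol, 72.9 and 124 CPM in obesity, against 1.15 CPM in control. Tlr4, the receptor for bacterial lipopolysaccharide, was at 4.77 and 20.0 CPM with resveratrol, 21.7 and 31.3 CPM in obesity, against 1.53 CPM in control. The macrophage markers summed to 193 and 1110 CPM with resveratrol, 1137 and 1193 CPM in obesity, against 62.1 CPM in control, so Ccr2, Tlr4 and the macrophage sum were lowest in control and next lowest in resveratrol library 1. Mc4r, which encodes a melanocortin receptor, was at 1.54 and 0 CPM with resveratrol, 1.77 and 0 CPM in obesity, against 1.05 CPM in control. It thus had reads only in the 3 libraries with the most beta-defensin reads, and was highest in obesity library 1. The part of macrophages was not tested. Among inducers, Il1r1, which encodes a receptor of interleukin-1, was at 24.0 and 29.6 CPM with resveratrol, 34.5 and 36.1 CPM in obesity, against 16.0 CPM in control. Nfkb1, which encodes a subunit of NF-kappa-B, was at 81.5 and 78.9 CPM with resveratrol, 64.8 and 75.7 CPM in obesity, against 36.2 CPM in control. Of the tested list members, 0 of 5 receptors and 0 of 8 inducers passed edgeR's test in either direction in any of the 3 comparisons. At an unadjusted p under 0.05, 3 receptors and 3 inducers were higher in obesity than in control, against 12.6% of all genes. Their median log2 differences from control were 2.95 and 0.96, beside -0.10 over all genes.

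The regulators of the duct lining named here had their highest levels in control and resveratrol library 1, by margins that differed widely. Pax8, a transcription factor gene of the genital tract and kidney, was at 139 and 0 CPM with resveratrol, 0 in both obesity libraries, and 227 CPM in control. Its relative Pax2 was at 118 and 0.0389 CPM with resveratrol, 2.56 and 0.0476 CPM in obesity, against 113 CPM in control. Etv4, a factor needed in the initial segment together with its relative Etv5, was at 8.13 and 2.06 CPM with resveratrol, 1.51 and 1.05 CPM in obesity, against 99.8 CPM in control. Etv5 was at 32.1 and 17.1 CPM with resveratrol, 18.5 and 20.3 CPM in obesity, against 268 CPM in control. Pax2 and Pax8 were thus highest in resveratrol library 1 and control, and Etv4 and Etv5 in control. Dicer1, which encodes an enzyme of microRNA maturation, lay between 43.1 and 64.7 CPM in all 5 libraries. Of the 7 tested regulators 0 passed edgeR's test in any comparison. At an unadjusted p under 0.05, 3 of them were lower in obesity than in control, against 11.7% of all genes. In direction alone, 6 of the 7 were lower in obesity than in control and 1 was higher, beside 52.7% of all genes lower.

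Antimicrobial proteins of other families showed no common pattern. Lcn2, which starves bacteria of iron, was at 55.9 and 3.03 CPM with resveratrol, 4.7 and 2.48 CPM in obesity, against 4613 CPM in control. Bpi, which binds bacterial lipopolysaccharide, was at 0 and 0.0389 CPM with resveratrol, 0 in both obesity libraries, and 165 CPM in control. Lyz2, which encodes the lysozyme of macrophages, was at 97.4 and 1029 CPM with resveratrol, 862 and 613 CPM in obesity, against 23.7 CPM in control. Slpi, a secreted protease inhibitor with antimicrobial activity, was at 1.36 and 211 CPM with resveratrol, 4.59 and 3.76 CPM in obesity, and 0 in control. Lcn2 and Bpi were thus highest in control, and Lyz2 and Slpi in resveratrol library 2. Of the 11 tested genes 0 passed edgeR's test in any comparison, with 1 higher in obesity than in control at an unadjusted p under 0.05, against 12.6% of all genes, and 4 lower, against 11.7%.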

How the data were processed

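The authors deposited raw, unnormalised counts per Ensembl mouse gene for 5 libraries. According to the labels' protocols, RNA from a lipid tissue kit went into stranded poly-A libraries, read from both ends over 150 bases. The submitters' processing notes name FastQC, featureCounts and build GRCm39. The sources used here do not give the aligner, the annotation release or the strand setting.

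Genes were filtered with filterByExpr (minimum count 10, minimum total 15), which 34 of the 42 members passed. All 5 libraries were fitted in edgeR 4.0.16 (R 4.3.3) with TMM factors and a robust quasi-likelihood F test, with Benjamini-Hochberg adjustment over 24779 genes at 0.05. The spread of the single control library was taken from the other groups. An SE is the log2 difference divided by the square root of F. Ratios of counts carry exact conditional intervals and shares exact Clopper-Pearson intervals (scipy 1.17.1). The fit was run on simulated counts with the same dispersion for every gene and library. That run does not show how the fit behaves where a library stands apart from its group. Alternatives were other scalings and filters, DESeq2 1.42.0, limma-voom (limma 3.58.1), other designs and left-out libraries. Figures were drawn with matplotlib 3.10.9.

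Members with 10 or more counts in a library are named. List genes were drawn from up to 6 per list at 1 CPM or more, by highest CPM, and not every such gene is named. Rela, the highest of the inducers at 134 CPM in resveratrol library 2, is among those left out. Ccr6 lies outside that rule and was chosen after its values were seen. Members and lists were chosen with earlier results of these data known. Protein sequences were not used here. A gene of the regulator list is not reported here.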

Additional observations from a re-analysis of the deposited data

How the results depend on the processing

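Counts of beta-defensin genes called were 0 in all 3 comparisons, and stayed at 0 with median-ratio size factors, library totals alone, a stricter filter and a fit that was not robust. The labels number the libraries of the groups alike but give no pairing, and with the number as a replicate block 0 members were called in each comparison (the deviations of replicate 1 correlated at 0.299 across genes between obesity and resveratrol). For obesity against control the count was 20 with no filter, 22 with DESeq2 and 32 with only the groups compared (9269 genes in all), and 0 to 33 over the left-out libraries. For resveratrol against obesity it was 1 with DESeq2 and 0 to 7 over the left-out libraries (2 members passed the filter without control), and for resveratrol against control 20 with no filter, 17 with DESeq2, 14 with limma-voom and 0 to 30 over the left-out libraries. No filter called 2575, 25 and 1671 genes in all. The cause of these differences was not tested. Single-gene differences reversed 5 times. Against obesity, Defb48 lay between -5.60 and 10.39 log2 and Defb30 between -6.27 and 8.08 over the left-out libraries, both negative without resveratrol library 1. Defb43 against control was at 0.0155 with no filter, 0.94 with the replicate block and -12.85 to 0.99 over the left-out libraries, positive without resveratrol library 2, beside -0.03 in the fit reported. The family sum was 16468 CPM in control with library totals alone and 15966 CPM with median-ratio factors. Without its leading member it was 137 CPM in resveratrol library 1, 3.18 and 0.0476 CPM in the obesity libraries and 11510 CPM in control. Depth limits the 3 libraries with under 100 beta-defensin reads, where most members are at 0.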
